A study of Mus musculus with 18 samples.

Results

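Albumin and 9 other liver-made carrier proteins of blood plasma were followed in the livers of mice that carry either form of the glucokinase regulatory protein GKRP. The 10 genes were Alb, Afm, Gc, Ttr, Trf, Rbp4, Ahsg, Fetub, Hpx and A1bg, out of 52230 genes with transcripts in the libraries. All 10 had enough counts to be tested, A1bg through the females only. They were chosen by name for what their proteins carry, with earlier results of these data in view. Of those earlier results, the female and male levels of A1bg were among the values known, so A1bg is described between the sexes with no test.

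Whole-liver RNA was sequenced from 18 mice on standard chow. All came from the single knock-in line GCKR-P446L-EMI-B6N, in which proline 446 of GKRP is replaced by leucine. The genotypes were Gckr-446P, called PP, and Gckr-446L, called LL, and there were 8 males, 4 of each genotype, and 10 females, 5 of each genotype. The labels give ages of 9, 12, 14 and 14 wk for male PP, 13, 13, 13 and 14 wk for male LL, 9, 9, 11, 12 and 14 wk for female PP and 11, 11, 13, 13 and 14 wk for female LL, whereas the description of the series gives 14 wk for all. Each mouse was 1 library of 3794671 to 6613905 estimated counts.

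Most plasma proteins other than antibodies are secreted by hepatocytes. Carriers keep poorly soluble or reactive cargo in circulation: albumin holds fatty acids, bilirubin and many drugs, transferrin (Trf) holds iron, haemopexin (Hpx) holds haem, and transthyretin (Ttr) travels with retinol-binding protein (Rbp4) as the carrier of retinol and thyroid hormone. Alb, Afm and Gc belong to 1 gene family and lie on the same chromosome. GKRP binds glucokinase in the hepatocyte nucleus and so sets the glucose-phosphorylating capacity of the liver. Rodent liver is strongly sexually dimorphic, in large part through the sex-specific pattern of growth hormone release and the factors STAT5B, BCL6 and CUX2.

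On GRCm39, Alb spans chr5:90608647-90624696 on the plus strand and Afm spans chr5:90666791-90701558 on the same strand, with 42.1 kb between them. Gc, on the minus strand at chr5:89561689-89605757, lies 1003 kb from Alb. Ahsg (chr16:22710027-22718201) and Fetub (chr16:22736127-22758528), which encode the fetuins, are 17.9 kb apart. Trf is at chr9:103081200-103107814, Rbp4 at chr19:38105066-38113754, Hpx at chr7:105240817-105249344 and A1bg at chr15:60768708-60794861.

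The bases just before the transcription start are shown for the 3 relatives on chromosome 5, of which Alb and Afm differed between the sexes and Gc did not pass the test, and for A1bg, whose level was near 0 in males. Each line gives 160 bases of GRCm39, 5′ to 3′ on the gene's own strand and ending at the base before the start of the transcript that held most of the gene's counts. Capitals mark matches to 5 motifs; the stretch shown for Gc held none.
Alb, chr5:90608589-90608748, plus strand: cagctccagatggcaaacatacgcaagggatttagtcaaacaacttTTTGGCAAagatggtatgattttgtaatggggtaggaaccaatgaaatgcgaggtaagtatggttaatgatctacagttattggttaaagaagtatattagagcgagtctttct
Afm, chr5:90666631-90666790, plus strand: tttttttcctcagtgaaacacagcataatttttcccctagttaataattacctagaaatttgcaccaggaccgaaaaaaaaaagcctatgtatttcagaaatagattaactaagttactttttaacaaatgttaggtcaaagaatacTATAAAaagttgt
Gc, chr5:89605758-89605917, minus strand: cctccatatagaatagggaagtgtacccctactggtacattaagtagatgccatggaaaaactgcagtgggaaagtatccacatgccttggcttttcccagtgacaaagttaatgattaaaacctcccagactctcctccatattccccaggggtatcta
A1bg, chr15:60793116-60793275, minus strand: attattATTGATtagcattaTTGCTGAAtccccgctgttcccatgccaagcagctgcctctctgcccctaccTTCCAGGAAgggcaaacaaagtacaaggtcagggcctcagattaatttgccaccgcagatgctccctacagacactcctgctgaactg

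The motifs were searched in the 250 bases before the start, on both strands except for the TATA box, which was searched on the gene's strand. Afm held the TATA box letters, TATAAA, at 13 to 8 bases before the start. Of 10937 tested genes 4.85% held these letters somewhere in their 250 bases. A1bg held the letters ATTGAT, which HNF6 and CUX2 can bind, the STAT5 letters TTCNNNGAA and the C/EBP letters TTGCNNAA, found before 5.10%, 6.72% and 8.83% of the tested genes. Gc held the HNF6 and CUX2 letters too, as ATCAAT on its own strand 214 to 209 bases before the start, upstream of the stretch shown. The C/EBP letters were also found in Alb, Rbp4, Ahsg and Hpx, and the TATA box letters in Rbp4. Alb held TTATGTAA, the letters of the PAR bZIP factors such as DBP, in 2 places further upstream than the stretch shown, against 0.777% of the tested genes with at least 1 match. No 2 of the marked matches overlapped. A match says only that the letters occur there.

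On the mean over the 18 mice, Alb was the most abundant of all genes, by share of counts and by TPM. TPM is a unit that divides by transcript length and scales each library to the same total. The mean TPM of Alb was 48423, ahead of Trf, which ranked 16 among all genes at 14720, Gc at 6108 and Ahsg at 6066. In male PP 3, Trf was above Alb by TPM, at 20669 against 13315. Ttr, Hpx and Rbp4 followed at 3776, 3279 and 2898. Fetub, Afm and A1bg were far lower, at 275, 81.8 and 35.4. TPM was unsteady for carriers with short annotated transcripts: Gc ranged from 2110 to 16460 TPM between mice while its share of counts stayed between 0.508% and 0.745%. Levels below are therefore shares of the library's counts, or normalized counts, which are counts scaled by the library's DESeq2 size factor.

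Together the 10 carriers held 7.67% to 10.1% of the counts of male PP livers, 10.1% to 12.5% in male LL, 17.4% to 20.3% in female PP and 15.2% to 17.1% in female LL. Alb made up most of this sum in every mouse. The total followed the order of Alb, lowest in male PP and highest in female PP, with the LL groups between.

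Alb took 6.77%, 4.88%, 5.01% and 6.80% of the counts in the 4 male PP mice and 9.01%, 8.18%, 7.13% and 8.64% in male LL. It took 14.4%, 14.7%, 13.0%, 14.3% and 16.0% in female PP and 11.0%, 12.7%, 11.8%, 13.0% and 11.6% in female LL. On this scale no 2 of the 4 groups overlapped, although the highest male PP and the lowest male LL mouse, and the lowest female PP and the highest female LL mouse, were close. The major urinary proteins (Mup), a family of abundant male-biased secreted proteins, took 25.7% ± 3.77 of the counts in male PP, 15.3% ± 3.26 in male LL (SD, n = 4 each) and 2.00% to 6.91% in females, so shares of other genes move with them. With Mup and mitochondrial genes left out of the total, mean Alb shares (± SD) were 9.02% ± 1.03 and 11.5% ± 1.29 in males (PP, then LL; n = 4 each) and 16.9% ± 0.837 and 14.3% ± 0.930 in females (PP, then LL; n = 5 each), and the order of the groups was kept.

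**Figure D1:**
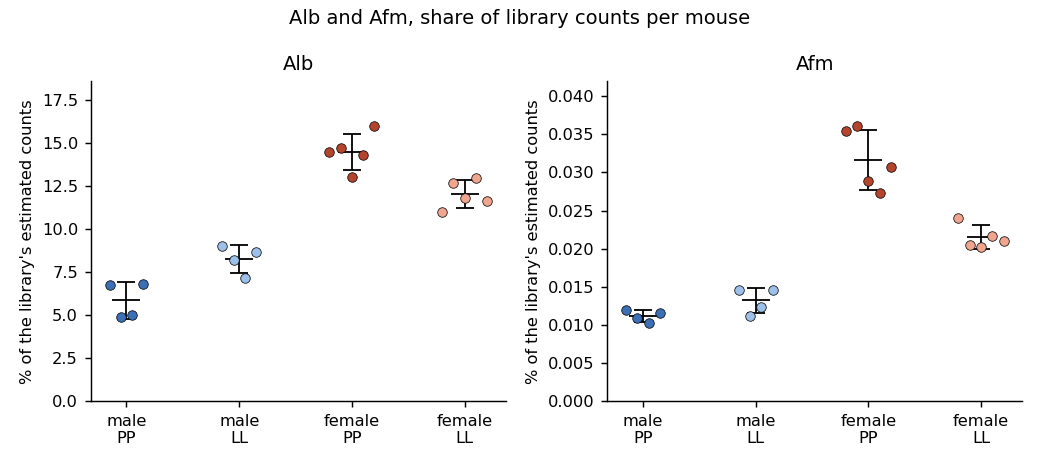
Each point is 1 mouse, the vertical axes give the percent of the library's estimated counts on Alb (left) and Afm (right), and bars are the group mean ± SD (n = 4 for male groups, n = 5 for female groups). Both genes were lowest in male PP (Alb mean 5.86%) and highest in female PP (Alb mean 14.5%), with LL mice of each sex between.

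The first comparison asked how carrier expression differed between the sexes in PP livers. Alb was 1.91-fold higher in female PP than in male PP (log2 difference 0.94 ± 0.10 SE, DESeq2 adjusted p = 2.23e-17), at 666570 ± 38350 against 348169 ± 46017 normalized counts (SD, n = 5 and 4). Afm, which encodes afamin, a carrier of vitamin E and of Wnt proteins, was 2.19-fold higher (log2 difference 1.13 ± 0.11 SE, adjusted p = 1.65e-20), at 1457 ± 171 against 668 ± 58.5. Ahsg, which encodes fetuin-A, a calcium-phosphate binding protein, was 1.38-fold higher (log2 difference 0.47 ± 0.15 SE, adjusted p = 0.0374), and its groups overlapped.

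A gene was called when its Benjamini-Hochberg adjusted p was under 0.05 and its fold change was at least 1.3 or at most 0.7. A1bg apart, 3 of 9 carriers were called between female PP and male PP, all higher in females, where 6.45% of the 10938 tested genes were called. The mice did not overlap for Alb, Afm and Ttr, 3 of the 9, against 9.74% of all genes. Ttr was 18286 ± 1767 normalized counts in male PP and 24007 ± 746 in female PP, a log2 difference of 0.39 ± 0.19 SE that did not pass (adjusted p = 0.252); fitted on these 2 groups alone, adjusted p was 0.000665 with DESeq2. Hpx leaned the other way, with a log2 difference of -0.59 ± 0.23 SE (adjusted p = 0.102). Gc differed by 0.03 (95% confidence interval -0.16 to 0.21, log2). With an offset for transcript length the difference for Gc was -1.04 (adjusted p = 0.236), far outside that interval, so the interval holds for counts that are not corrected for length.

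In LL livers the sex difference of the albumin genes was smaller. Afm was 1.41-fold higher in female LL than in male LL (log2 difference 0.49 ± 0.11 SE, adjusted p = 0.000787). Alb was 1.26-fold higher (log2 difference 0.33 ± 0.10 SE, adjusted p = 0.0247), which passed the p threshold and missed the fold limit of 1.3. That pass was not firm. Over 19 alternatives with DESeq2 or edgeR the log2 difference of Alb ran from 0.27 to 0.39 and its adjusted p from 0.0132 to 0.390. Ahsg was 1.37-fold higher (log2 difference 0.46 ± 0.15 SE, adjusted p = 0.0440). Of 9 carriers, 2 were called, both higher in females, where 6.12% of all genes were called, and the mice did not overlap for Alb and Afm, against 8.16% of all genes.

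The sex calls of Ahsg were the least firm. They were lost with edgeR (adjusted p = 0.116 in PP and 0.122 in LL), with a term for fragment length, with one for age, and when any of 7 of the 9 PP libraries or 8 of the 9 LL libraries was left out. The sex calls of Afm in both genotypes and of Alb in PP held in each of the 19 alternatives run, with log2 differences of 1.06 to 1.20, 0.43 to 0.56 and 0.89 to 1.31.

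The next comparison asked whether the LL genotype changed the carriers within each sex. In females, Afm was the only member called. Its normalized counts were 1662, 1605, 1372, 1254 and 1394 in female PP mice and 1186, 949, 942, 1067 and 933 in female LL mice. Every LL mouse was below every PP mouse. Afm fell by 0.52 ± 0.11 SE on the log2 scale (adjusted p = 0.000521), and 1 of 10 carriers was thus called where 0.658% of all genes were, or 0.837% of the 8598 genes that had an adjusted p. This was also the only carrier whose groups did not overlap, against 2.66% of all genes.

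The decrease of Afm kept its size in all 20 alternatives, from -0.58 to -0.44 on the log2 scale, and lost its call in 9 of them. Adjusted p was 0.117 with edgeR, 0.0750 with a term for fragment length and 0.0567 with an offset for transcript length. With a term for age and without female PP 1, female PP 2, female LL 2, female LL 3 or female LL 5 the change was just short of the fold limit, with adjusted p at or below 0.0107. Fragment length, estimated from the effective lengths in the files, averaged 292 ± 52.1 bases in the 5 female LL libraries and 448 ± 108 in the 5 female PP libraries (SD; two-sided exact permutation p = 0.0159), and its part in the difference was tested only through that term.

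Alb normalized counts were 676903, 655272, 618995, 657621 and 724059 in female PP and 540599, 587795, 548498, 637308 and 516706 in female LL. Only female LL 4 reached above the lowest female PP mouse. The log2 difference of -0.24 ± 0.10 SE did not pass (adjusted p = 0.213). Fetub, encoding fetuin-B, a protease inhibitor needed for fertilization, had a log2 difference of 0.39 ± 0.13 SE (adjusted p = 0.0983); it was called without female PP 4 (adjusted p = 0.0245) or female LL 3 (adjusted p = 0.0194).

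In males no carrier was called by genotype, where 0.283% of all genes were, or 0.939% of the 3301 genes that had an adjusted p. A1bg, with at most 2 counts in a male, had too few counts to show a difference here and is left out of the next counts. The groups overlapped for all 9 other carriers, while 4.07% of all genes had groups that did not. At an unadjusted p under 0.05 by DESeq2, Alb and Hpx were the 2 of these 9 carriers that differed, where 7.81% of all genes did. With edgeR neither was called. Alb was 410794, 315825, 311509 and 354548 normalized counts in male PP and 503677, 473835, 393299 and 430907 in male LL. Only male PP 1 lay within the LL range. The log2 difference was 0.37 ± 0.11 SE (95% confidence interval 0.16 to 0.58, adjusted p = 0.0524), opposite in sign to that in females. Without male PP 1 it was called at 0.46 (adjusted p = 0.00821), as it was without male LL 3 at 0.43 (adjusted p = 0.0107).

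Hpx was 29006, 53310, 22797 and 28101 normalized counts in male PP and 14495, 21422, 16636 and 31593 in male LL. Only male LL 4 was above the lowest male PP mouse, and male PP 2 stood well above the rest. The log2 difference was -0.66 ± 0.24 SE (adjusted p = 0.181), and without male LL 4 it was called at -0.93 (adjusted p = 0.0136). The acute-phase haemoglobin carrier Hp, from the wider list below, had a log2 difference of -0.85 ± 0.27 SE in the same comparison (adjusted p = 0.110). Hp was named here after its value was seen, and it had the smallest unadjusted p of that list in this comparison.

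**Figure D2:**
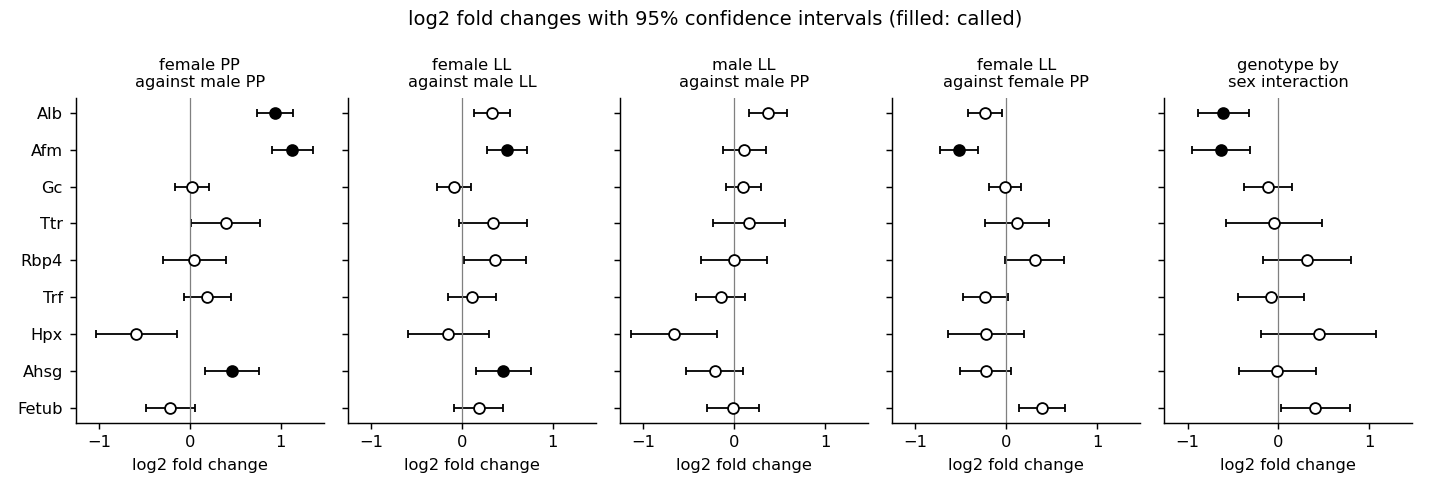
Points are DESeq2 log2 fold changes of 9 carriers (A1bg is left out, being off the scale between the sexes), bars are 95% confidence intervals, and filled points were called. Alb and Afm stand to the right in both sex comparisons, by 0.94 and 1.13 in PP and by 0.33 and 0.49 in LL, and to the left in the interaction, by -0.61 and -0.63.

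Whether the genotype effect differed between the sexes was tested as an interaction, the log2 LL effect in females minus that in males. The interaction was -0.61 ± 0.15 SE for Alb (adjusted p = 0.0180) and -0.63 ± 0.16 SE for Afm (adjusted p = 0.0245). A1bg apart, these were 2 of 9 carriers, where 13 of 10938 genes, or 0.119%, were called at an adjusted p under 0.05 with no fold limit. Only 1606 genes, all 10 carriers among them, kept an adjusted p after DESeq2's independent filtering of genes with low mean counts, and 0.809% of these were called. Without that filtering adjusted p was 0.0443 for Alb and 0.0686 for Afm. For Alb the interaction joined a higher value in male LL to a lower value in female LL, and for Afm it came mostly from the decrease in females, since the male difference was 0.11 ± 0.12 SE (adjusted p = 0.820). The other 8 carriers did not pass, among them A1bg, which had at most 2 counts in any male. The interval for Gc was -0.38 to 0.15 (0.75 with an offset for transcript length).

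The size of both interactions was steadier than their calls. Over 27 alternatives the Alb value ran from -0.97 to -0.55 and that of Afm from -0.70 to -0.57, and none changed sign. The Alb call was lost in 12 alternatives and the Afm call in 16. With edgeR adjusted p was 0.613 for Alb and 0.533 for Afm, and no gene in the table was called, with 676 at an unadjusted p under 0.05. Leaving out 1 library ended the Alb call in 9 of 18 cases (female PP 1, 2 or 3, male PP 2, 3 or 4, female LL 1, male LL 1 or 2; adjusted p 0.0542 to 0.124) and the Afm call in 11 of 18 (female PP 1, 2 or 3, any male PP, female LL 3 or 4, male LL 1 or 4; adjusted p 0.0602 to 0.168).

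Ttr and Rbp4, the retinol carriers, varied widely among LL mice. Ttr was 12110, 25184, 26818 and 17922 normalized counts in male LL and 28944, 20323, 20778, 33492 and 26603 in female LL, but only 23452 to 25299 in female PP. Rbp4 was 6907, 12532, 12254 and 10765 in male LL and 13090, 11292, 11202, 17781 and 14826 in female LL, against 10512 to 11824 in female PP. In male PP Ttr ran from 16273 to 19989 and Rbp4 from 8098 to 12912, so that Rbp4 spread there nearly as widely as in LL mice (coefficient of variation 18.6%, against 24.4% in male LL, 20.2% in female LL and 4.90% in female PP). The same mice were high or low for both genes: male LL 1 was lowest of its group for both and female LL 4 highest. Taking each mouse's deviation from its group mean on the log2(normalized count + 1) scale, Ttr and Rbp4 were correlated (Pearson's r = 0.85, Spearman's rho = 0.73, 18 mice). By permutation within groups p was 0.00115 and 0.00513, and 0.0129 and 0.0577 once adjusted over the 45 pairs of carriers. The r was 0.76 without the 2 mice farthest from the median of Ttr, 0.84 in the 8 males and 0.88 in the 10 females. On the same scale, deviations of the share of counts on mitochondrial genes had, as a description, r of -0.50 with Ttr and -0.56 with Rbp4 over the 18 mice, and the part of that share in the relation was not tested.

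Trf, Hpx and Ahsg formed another set that varied together. The r of Trf with Hpx was 0.79 (rho 0.78; p = 0.00022 and 0.00017, adjusted 0.00990 and 0.00765), that of Trf with Ahsg 0.78 (rho 0.77; adjusted 0.0129 and 0.0288) and that of Ahsg with Hpx 0.74 (rho 0.73; adjusted 0.0129 and 0.0288), by the same permutation. Without the 2 farthest mice these were 0.72, 0.62 and 0.62. Of the 45 pairs, these 4 passed by Pearson's r and the 3 without Ttr and Rbp4 by Spearman's rho. Pairs of other genes were not tested, so this count has no background beside it. Deviations of the mitochondrial share had, as a description, r of -0.36 with Trf, -0.38 with Hpx and -0.11 with Ahsg. The part of that share was not tested. Alb followed none of the other carriers closely: its largest r with a carrier was 0.45, with Gc (rho 0.44, permutation p adjusted to 0.493 and 0.537).

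**Figure D3:**
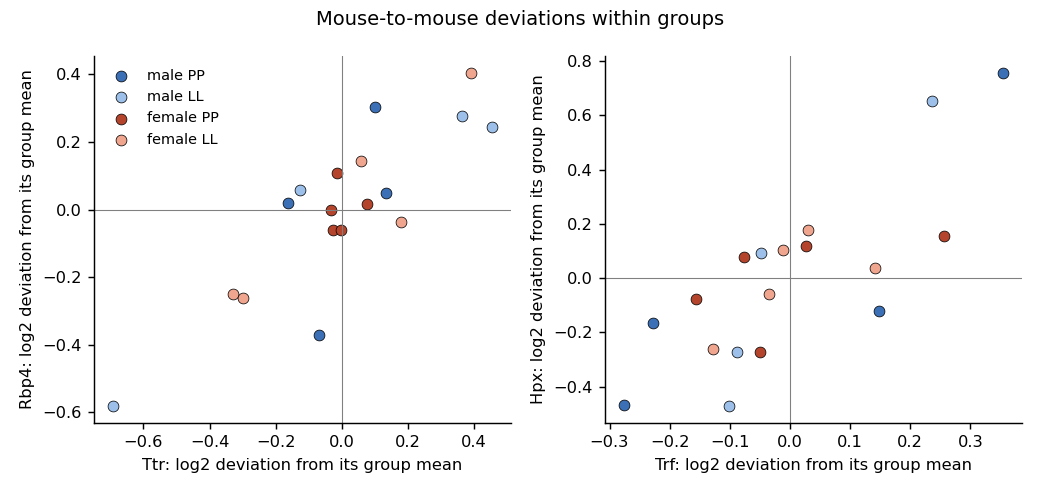
Each point is 1 mouse, and both axes give its deviation from the mean of its own group on the log2(normalized count + 1) scale, for Rbp4 against Ttr (left, r = 0.85) and Hpx against Trf (right, r = 0.79). Mice high for one gene of a pair tend to be high for the other.

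Trf, the iron carrier, was 58069 ± 12333 normalized counts in male PP, 52349 ± 6065 in male LL, 66299 ± 7539 in female PP and 56502 ± 3875 in female LL (SD, n = 4, 4, 5 and 5). Gc, the carrier of vitamin D and of free actin, was the steadiest, at 32598 ± 3096, 34959 ± 3055, 33173 ± 1723 and 32850 ± 3180 in the same order. Neither was called in any comparison, nor were Ttr, Rbp4, Fetub and Hpx. An offset for transcript length turned the sign of several of their uncalled values; in Trf, 20.3% of the counts were assigned to a retained-intron transcript of 433 bases, and in Gc 10.6% to a transcript of 444 bases.

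**Figure D4:**
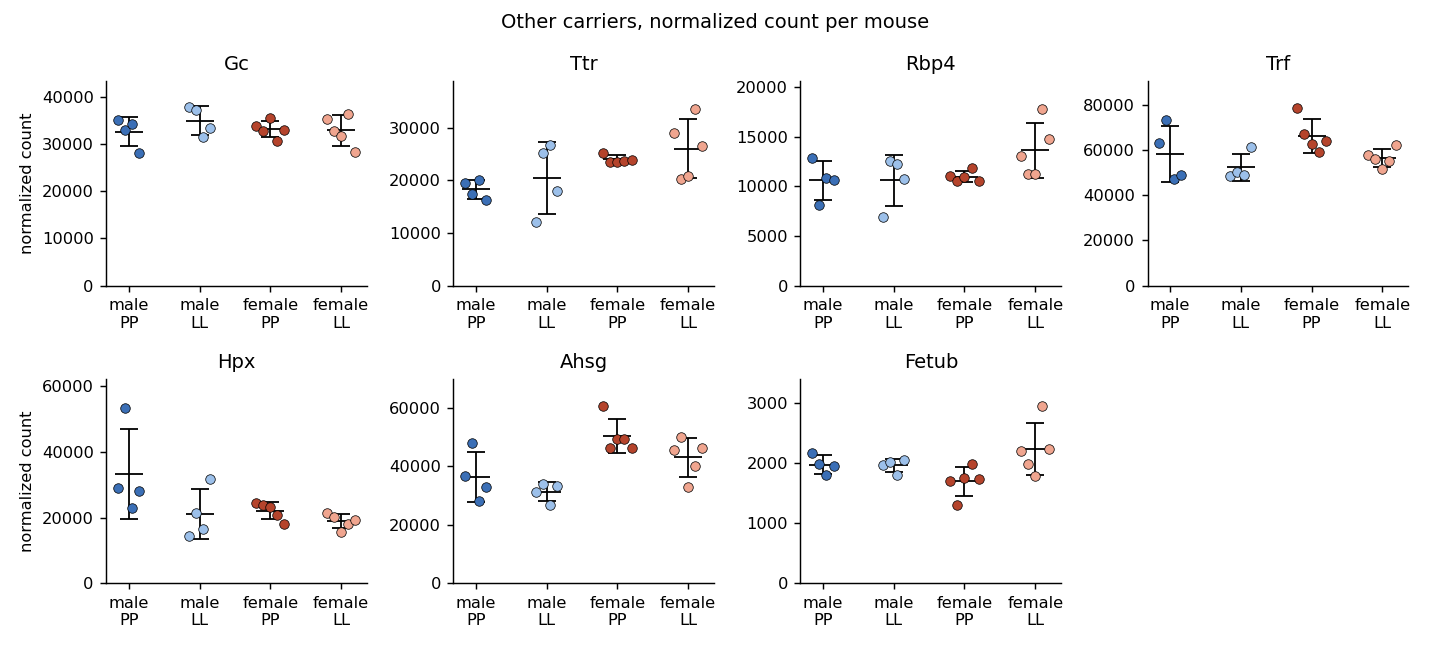
Each point is 1 mouse, the vertical axes give normalized counts from 0, and bars are the group mean ± SD (n = 4 male, n = 5 female). Ahsg sits higher in females (50328 in female PP against 36431 in male PP), Gc is level across groups, and Hpx spreads widely among males and Ttr among LL mice.

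A1bg, which encodes a plasma glycoprotein of the immunoglobulin superfamily, was seen in females and was nearly absent from males. In males 5 of 8 libraries had an estimated count of 0 and the highest count was 2. Normalized counts were 268, 1933, 133, 586 and 40.3 in female PP and 968, 1254, 577, 9.87 and 285 in female LL. Summed over mice, A1bg had 3326 counts in female PP against 1 in male PP. In LL the sums were 3309 and 3. Per library total these were 2653 and 922 times higher in females. The ratios are rough, since so few counts were found in males and 2126 of the female PP counts came from female PP 2.

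The females themselves spanned 196-fold, from female LL 4 to female PP 2, more than any other carrier. Female LL 4 had an estimated count of only 8, so the size of this span is rough. The genotype difference in females was 0.06 ± 1.13 SE on the log2 scale (95% confidence interval -2.15 to 2.27, DESeq2 adjusted p = 0.989), an interval too wide to tell a difference in either direction. By age, the 2 mice of 9 wk had 268 and 1933, the 3 of 11 wk 133, 968 and 1254, the mouse of 12 wk 586, those of 13 wk 577 and 9.87 and those of 14 wk 40.3 and 285. The 3 highest values were thus found in mice of 9 and 11 wk, and no test was made of these few, unequal ages.

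**Figure D5:**
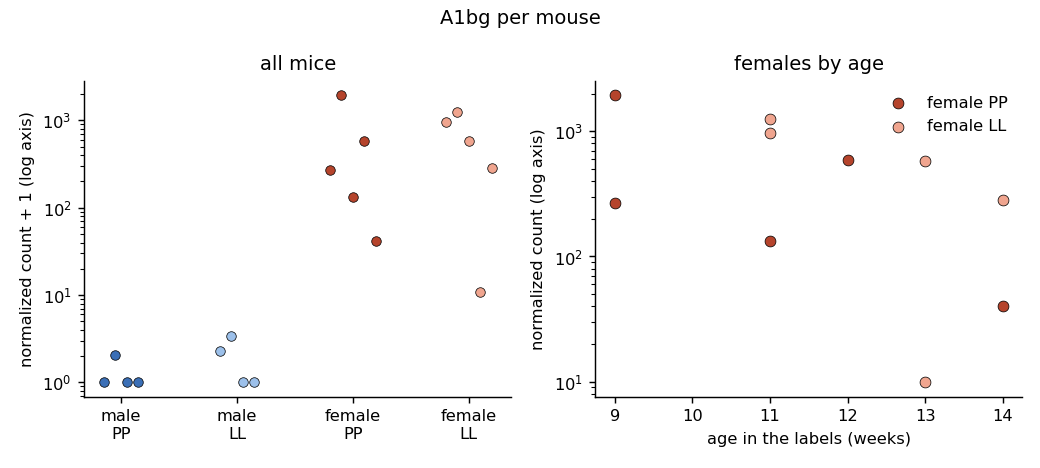
A1bg normalized counts, 1 point a mouse; on the left normalized count + 1 for all 4 groups and on the right normalized counts of the 10 females by age in weeks, both on log axes. Male mice sit at or near 0 (at most 2.40), females run from 9.87 to 1933.

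Over the 10 females, the tested genes whose log2(normalized count + 1) was most like that of A1bg were Pgd (r = 0.96), Smo (r = 0.90), Dynlt1-ps1 (r = 0.90), Klf10 (r = 0.89) and Flvcr1 (r = 0.88), picked as the 5 highest of all tested genes and given as a description. Pgd, an enzyme of the pentose phosphate pathway, ran from 69.1 in female LL 4 to 150 in female LL 2. Smo ran from 6.17 to 14.8 normalized counts, Flvcr1 from 6.17 to 13.8 and Dynlt1-ps1 from 0 to 36.4, all low levels. Female LL 4 was lowest for A1bg and for each of these 5 genes, so the r values lean in part on that library. Dynlt1-ps1 is a pseudogene and may share reads with its parent gene. The 5 most like Alb, over deviations from the group mean in all 18 mice, were Klhl13 (r = 0.84), Ubxn7 (r = 0.80), Pdik1l (r = 0.79), Uck2 (r = 0.79) and Itprid2 (r = 0.78).

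Other genes of plasma carriage and its control were taken from 4 lists, also chosen with earlier results known. Among 25 tested genes of 26 other binding and carrier proteins (Afp, the albumin relative of the fetus, had too few counts), none was called by genotype in either sex; by DESeq2, 7 had an unadjusted p under 0.05 in males, where 7.81% of all genes did, and 5 in females, where 13.0% did. In males 3 of the 25 and in females 2 had no adjusted p and could not be called. Among them Orm2 and Lcn2, named after their values were seen, had no p at all in either sex. DESeq2 gives none where its check finds an outlying count in a library. Their log2 differences in males were -3.23 ± 0.71 SE and -3.01 ± 0.86 SE, and whether these rest on such a library was not tested. Between the sexes in PP, Serpina6, the corticosteroid carrier, was higher in females by 1.10 (log2, adjusted p = 0.00481) and Itih2 by 0.55 (adjusted p = 0.00249), while the acute-phase genes Hp (-1.18, adjusted p = 0.000256), Lrg1 (-1.53, adjusted p = 0.000256), Orm1 (-0.73, adjusted p = 0.0261) and the histidine-rich glycoprotein Hrg (-0.57, adjusted p = 0.00167) were lower. In LL, Serpina6 (1.01, adjusted p = 0.0149), Pon1 (0.72, adjusted p = 0.000154) and Igfals (1.05, adjusted p = 0.00431) were higher in females and none was lower. Of the 25 genes, 2 were thus called higher and 4 lower in PP, where 6.45% of all genes were called. In LL 3 of the 25 were, where 6.12% of all genes were. The list's median log2 difference was -0.28 in male LL against male PP, 0.05 in female LL against female PP, 0.01 between the sexes in PP and 0.13 in LL, beside medians over all tested genes of no more than 0.013 in size.

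Of 18 genes for uptake, recycling and handling of the carriers and their cargo, Fth1, the heavy chain of the iron store ferritin, was the only one called by genotype, higher in female LL by 0.53 ± 0.12 SE on the log2 scale (adjusted p = 0.00224); in males 5 of the 18 had no adjusted p. Lrat, which esterifies retinol (1.04, adjusted p = 0.0490), and the iron exporter Slc40a1 (0.60, adjusted p = 0.00434) were higher in females in PP. Lrp1, a clearance receptor that takes up haemopexin with haem, was higher in females in LL (0.62, adjusted p = 0.0453). Fth1 was thus 1 of 18 in females, where 0.658% of all genes were called by genotype. Between the sexes 2 of 18 were called in PP and 1 of 18 in LL, beside 6.45% and 6.12% of all genes. The list's medians in the same order of comparisons were -0.03, -0.01, 0.24 and 0.24.

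Of 17 liver-enriched transcription factors, Cux2 was higher in females in both genotypes (log2 difference 5.49 in PP, adjusted p = 1.23e-09, and 5.98 in LL, adjusted p = 7.6e-06), Bcl6 was lower in female PP (-2.09, adjusted p = 0.0147) and Stat5b higher in female LL (0.65, adjusted p = 0.0317). Of all genes 6.45% were called between the sexes in PP and 6.12% in LL. No factor was called by genotype, although 10 of the 17 had no adjusted p in males. The medians were -0.24, -0.10, -0.04 and 0.07. Of 20 genes of the secretory pathway, through which all the carriers leave the cell, only Sec61g was called, lower in female LL than in male LL (-3.82, adjusted p = 0.000831). That is 1 of 20, near the 6.12% of all genes called in this comparison. The medians were 0.07, -0.03, -0.01 and -0.04. In the interaction 4, 6, 13 and 5 genes of these 4 lists, in the order given, had no adjusted p, and DESeq2 called none of the rest. At an unadjusted p under 0.05 were 4, 2, 0 and 1 of their genes, where 5.67% of all genes were. With edgeR no gene was called there at all.

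Gckr itself was measured at 518 ± 82.2 normalized counts in male PP, 478 ± 24.6 in male LL, 611 ± 114 in female PP and 592 ± 60.6 in female LL, and was not called in any comparison (adjusted p 0.182 to 0.933). The knock-in changes 1 residue, so this level does not check the genotype. All 8 hepatocyte markers were tested and summed to 165 to 258 per 10000 counts across mice. In the same unit, 6 stellate cell and fibroblast markers summed to 0.592 to 1.57 in male PP, 1.24 to 1.82 in male LL, 2.34 to 2.71 in female PP and 1.64 to 2.79 in female LL, and 6 endothelial markers to 0.238 to 0.527, 0.404 to 0.483, 0.594 to 1.31 and 0.435 to 0.919, with all of them found in some library. Both lists had their lowest median in male PP, where Alb was lowest too. So did the hepatocyte markers, with medians of 178 in male PP, 195 in male LL, 210 in female PP and 213 in female LL. All these sums are shares of total counts, of which Mup took the most in male PP (mean 25.7%). Erythroid markers (5 genes) summed to 2.83 to 4.95 in female PP and 2.42 to 12.3 in female LL, 6 Kupffer cell and macrophage markers to 1.64 to 2.05 and 0.938 to 1.55, and cholangiocyte, lymphocyte, neutrophil, adipocyte and exocrine pancreas lists to at most 0.278 in any mouse. The part of these cells in the differences was not tested. In whole liver, fewer hepatocytes and less RNA per hepatocyte cannot be told apart.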

How the data were processed

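Whole-liver RNA-seq of 18 mice was quantified per transcript by the authors with Salmon 1.4.0 (version from the submitters' processing notes) against GENCODE M26 on GRCm39, after quality control with FastQC. The deposited values used here are estimated counts, which need not be whole, TPM computed by the authors, and transcript lengths with effective lengths. Transcripts were joined to GENCODE M39 genes (137570 of 139225, at least 99.76% of counts), summed per gene and rounded; 31-base words of the carriers shared with other genes were at most 2.16% (Trf). Totals were 3794671 to 6613905, so counting error was small for every carrier but A1bg. A1bg had at most 2 counts in males and as few as 8 in a female.

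The 10938 genes that reached 10 counts in 4 or more libraries were tested with DESeq2 1.42.0 (R 4.3.3), 4 groups in 1 fit over all 18 libraries, with Benjamini-Hochberg adjustment over the genes kept by DESeq2's independent filtering on mean count and its check for outlying counts (3301 in males and 8598 in females by genotype, 10930 in each sex comparison, 1606 in the interaction); other genes had no adjusted p and could not be called. edgeR 4.0.16 was an alternative. The pipeline was tested on simulated data. Exact permutation tests used scipy 1.17.1. The members and gene lists were chosen with earlier results of these data known. Named genes were all carriers, Gckr, list genes passing the test (up to 6 per list and comparison) and the 5 most like A1bg or Alb. Orm2, Lcn2 and the genotype difference of Hp in males were named after their values were seen. No library duplicated another: chi-square per degree of freedom between libraries of 1 group was 12.3 to 107 over 32 pairs. Mice are separate animals. Alternatives were TMM factors, no filter, no independent filtering, a transcript length offset, fragment length or age terms, leaving out Mup and mitochondrial genes, a replicate block, the 2 compared groups alone and leaving out each library. Upstream sequence came from GRCm39. Upstream sequence of Ttr was not used here. One transcription factor of the lists and its motif are not reported here.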

Additional observations from a re-analysis of the deposited data

Results flagged for a closer look

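Alb and Afm differed in their genotype effect between the sexes: the log2 LL effect in females minus that in males was -0.61 for Alb and -0.63 for Afm, by the interaction test described above.

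In all, 5 carrier values stood far from the rest of their group by Dixon's 95% criterion, among 40 groups of mice tested, of which chance flags about 1 in 20. Ttr in female PP 1 was 25299 normalized counts, with the others at 23452 to 23949. Ahsg in female PP 1 was 60435, with the others at 46249 to 49428. Trf in male LL 4 was 61373, with the others at 48587 to 50394. A1bg in female PP 2 was 1933, with the others at 40.3 to 586, and A1bg in male PP 2 was 1.05, with the others at 0, a single estimated count.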

How the results depend on the processing

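Precision was limited by 4 or 5 mice a group, by A1bg counts near 0 in males and down to 8 in females, and by transcript assignment for carriers with short transcripts. Over 50 carrier results and 1030 alternative values, 908 kept direction and call, 60 lost a call, 8 gained one and 54 changed sign; every sign change was of a value that was not called. The number of genes called depended on the tool. In males 31 genes were called in the reported fit, 3 with edgeR, 53 with the length offset and 20 to 60 with 1 library left out. In females 72 were called, 3 with edgeR, 28 with the length offset, 11 with a fragment length term, 44 with an age term and 28 (without female PP 5) to 270 (without female PP 4) with 1 library left out. Between female LL and male LL, 669 were called, and 429 with the fragment length term. In the interaction 13 were called, 0 with edgeR (676 at an unadjusted p under 0.05), 8 without independent filtering and 3 to 27 with 1 library left out (3 without female PP 3, 27 without female LL 3). The cause of these shifts was not tested.

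Replicate numbers were not taken as pairs of mice in the reported fit. Deviations of same-numbered PP and LL mice had r of -0.17 to 0.16. Mice of unlike number were not set beside them, so these r do not settle whether mice were paired. With number as a replicate block, 43 genes were called in females in place of 72, and the interaction calls of Alb (-0.61, adjusted p = 0.230, DESeq2) and Afm (-0.63, adjusted p = 0.354, DESeq2) were lost; Rbp4 in male LL against male PP became -0.014.

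With the length offset, log2 values changed sign for Gc in males (-0.083), females (0.67), between the sexes in PP (-1.04) and in the interaction (0.75), for Rbp4 in males (-0.43) and between the sexes in PP (-0.22), for Fetub in males (0.31), between the sexes in LL (-0.45) and in the interaction (-0.050), for Ttr in females (-0.016) and for Trf in females (0.17), between the sexes in PP (-0.74) and in the interaction (1.22). With the fragment length term this held for Rbp4 in males (-0.11) and between the sexes in PP (-0.0040), for Ttr in females (-0.090) and for A1bg in females (-0.74). With the age term it held for Gc in females (0.024) and between the sexes in PP (-0.0080) and for Ahsg in the interaction (0.0032). Rbp4 in males was -0.0045 with edgeR and -0.0044 with TMM factors.

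Leaving out 1 library moved uncalled values across 0 in these ranges: Rbp4 in males -0.11 to 0.16, Fetub in males -0.053 to 0.037, Gc in females -0.051 to 0.036, A1bg in females -0.37 to 1.27, Gc between the sexes in PP -0.038 to 0.062, Rbp4 between the sexes in PP -0.061 to 0.16, Hpx between the sexes in LL -0.29 to 0.11, and in the interaction Ttr -0.23 to 0.11, Trf -0.21 to 0.0061 and Ahsg -0.17 to 0.095. The mitochondrial share of counts was 2.29 percentage points higher in female LL than in female PP (1.99 to 2.78 with 1 library left out), the Mup share was 10.5 lower in male LL (differences of -11.9 to -9.05, with the smallest possible exact permutation p then 0.0571), and the Mup share in females differed by -0.62 (-1.08 to 0.15).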
